A study of Mus musculus with 12 samples.

Results

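The BCL2 family was followed through 10 genes that were chosen by name, as listed members of the family. All 10 were found by symbol in the tables of cultured and fetal cells and by Entrez ID in the tables of postnatal cells, out of 35652 and 34896 genes listed there and 31685 genes in both. RNA was counted in 12 mouse libraries, 2 in each of 6 groups, with a method (SC3-seq) that reads the 3' ends of amplified cDNA made from 1 ng of RNA. The 6 cultured libraries were germline stem cells (GSCs), the cultured form of spermatogonial stem cells, all of the line Acrosin-EGFP; beta-Actin-EGFP, either wild type (WT) or from Stag3 knockout line 1 (KO1) or line 2 (KO2). The 6 libraries taken in vivo were testis germ cells with the genotype Vasa-RFPTg/0 from male fetuses at embryonic days 16 and 17 (E16 and E17) and from pups at postnatal day 7 (P7). Whether the 2 libraries of a group came from separate cultures or animals is not in the labels, and p-values here reflect the spread among these libraries alone, which may be technical. They also do not say how the knockouts were made or whether a line is 1 clone.

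BCL2 family proteins decide whether the outer mitochondrial membrane stays closed or is opened to release cytochrome c, the step that commits a cell to intrinsic apoptosis. Survival members (Bcl2, Bcl2l1, Mcl1) hold the pore formers (Bax, Bak1) in check, and BH3-only members (Pmaip1, Bbc3, Bcl2l11, Bid, Bad) relay damage, growth factor loss or other stress by binding the survival proteins or activating the pore formers. In the testis the family is known for the culling of germ cells, and mice without Bax keep surplus spermatogonia.

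Total counts ranged from 1938644 to 4596607 per library. A level in RPM is a gene's reads per 1000000 reads counted on genes outside the mitochondrial genome. Since 3' tags differ in capture from gene to gene, levels were compared between groups and not between genes. A count of 0 allows a level of up to 0.75 to 1.73 RPM depending on the library, by a limit of 3 counts that covers counting error only. Stag3, the targeted gene, stood at 385 and 420 RPM in WT, 295 and 304 in KO1 and 137 and 152 in KO2, so its 3' tags were still counted in both lines and do not check the knockout. The germ cell genes Ddx4 and Dazl were counted in all 12 libraries, at 415 to 815 and 441 to 1921 RPM. Undifferentiated spermatogonia markers summed to 374 to 712 RPM in GSC and P7 libraries and to 33.3 to 47.1 RPM in the fetal ones. Summed levels of 7 lists of somatic cell markers were higher in all 4 fetal libraries than in both WT and both P7 libraries, for 7 of the 7 lists. Single markers did not all follow the sums. For example, the fibroblast marker Col1a1 stood at 57.6 and 65.8 RPM at P7 and 8.45 to 36.1 in the fetal libraries. The Sertoli marker Sox9 stood at 9.54 and 6.49 RPM at P7 and 3.98 to 5.28 in the fetal ones. Sertoli markers (7 of 8 found) summed to 26.4 and 31.7 RPM in WT, 133 to 151 in the fetal libraries and 60.8 and 95.8 at P7, with the defining gene Amh at 0 in all 12. Of these markers Clu stood at no more than 1.63 RPM in WT and 83.8 to 109.8 in the fetal libraries, while Wt1 stood at 16.1 and 12.7 RPM in WT and 4.47 to 7.51 in the fetal ones. Leydig markers (5 of 5 found) summed to 1.91 and 2.24 RPM in WT, 27.3 to 37.2 in the fetal libraries and 2.78 and 8.55 at P7, and erythroid markers (4 of 4) to 0.25 and 0.27, 67.6 to 211, and 11.5 and 65.5 RPM. ERCC spike-in RNA took 2.80% to 3.41% of counts in GSC libraries, 1.22% and 1.52% at E16, 0.19% and 0.23% at E17 and 5.85% and 4.69% at P7. Whether each library received the same amount of spike-in is not given in the sources used here, so scaling by ERCC totals is only an alternative.

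Promoter sequences are shown for 3 members on which the results turn. Bcl2l11 differed between the knockout lines, and Mcl1 and Bcl2l1 moved in opposite directions between fetal and postnatal cells relative to the bulk of genes, though both were lower at P7 than at E17 when scaled by totals of the ERCC spike-in RNA (-3.31 and -5.70 on the log2 scale). Each run is the 250 bases before a RefSeq transcript start on GRCm38.p6, written 5' to 3' on the gene's strand. Capitals mark matches on either strand to any of 6 motifs, the GC box (GGGCGG), the CCAAT box (CCAAT), the TATA box (TATAAA), an E-box (CACGTG), the CRE (TGACGTCA) and a forkhead motif (TGTTTAC). The windows are chr2:128125788-128126037 (plus strand) for Bcl2l11, chr3:95658471-95658720 (plus) for Mcl1 and chr2:152831729-152831978 (minus) for the outermost of 3 Bcl2l1 starts. Mcl1 is annotated from 95656944 and Bcl2l1 up to 152833803, so the Mcl1 and Bcl2l1 windows lie inside the annotated genes.
Bcl2l11: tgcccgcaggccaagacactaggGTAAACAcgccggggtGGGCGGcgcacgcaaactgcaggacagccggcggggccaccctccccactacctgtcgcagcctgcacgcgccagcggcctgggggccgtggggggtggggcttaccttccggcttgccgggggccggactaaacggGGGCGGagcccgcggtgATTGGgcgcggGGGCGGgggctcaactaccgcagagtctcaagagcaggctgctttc
Mcl1: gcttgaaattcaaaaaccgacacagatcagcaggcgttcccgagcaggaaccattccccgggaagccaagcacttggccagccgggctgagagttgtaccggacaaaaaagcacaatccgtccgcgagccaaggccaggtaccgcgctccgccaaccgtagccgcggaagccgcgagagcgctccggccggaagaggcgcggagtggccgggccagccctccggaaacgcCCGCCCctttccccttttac
Bcl2l1: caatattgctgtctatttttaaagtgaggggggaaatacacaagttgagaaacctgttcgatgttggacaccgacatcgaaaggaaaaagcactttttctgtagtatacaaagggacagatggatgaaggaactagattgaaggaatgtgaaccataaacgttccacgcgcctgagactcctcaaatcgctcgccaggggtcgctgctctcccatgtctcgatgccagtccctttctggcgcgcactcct

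The Bcl2l11 window shown, the outer of 2 for this gene, is 72.0% G and C and holds 3 GC boxes, 1 CCAAT box and 1 forkhead motif. The other Bcl2l11 window is 73.2% G and C, with 2 GC boxes, 2 CCAAT boxes and 0 forkhead motifs. The Mcl1 window is 64.4% G and C with 1 GC box, and the Bcl2l1 window is 47.6% G and C with 0 matches to the 6 motifs. The median over all 32851 promoter windows of this length is 52.4%. In total 15 windows of 9 members were in the RefSeq table, some of them overlapping, and Pmaip1 was not matched. A GC box lay in 10 of the 15 windows against 32.7% of all windows, a CCAAT box in 4 against 33.9%, an E-box in 2 against 6.02% and a forkhead motif in 2 against 3.17%. The TATA box and the CRE were in 0 of the 15, against 12.4% and 1.55% of all. A match describes the letters only, and binding was not measured.

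Of the 10 members, 7 passed the filter on low counts in every comparison, and Bcl2, Bak1 and Bbc3 did not. Bcl2, the founding survival gene, held 3 and 4 counts in WT, 1 and 2 in KO1, 5 and 5 in KO2, 2 and 20 at E16, 3 and 5 at E17 and 7 and 4 at P7. Its one value above 3 RPM, 7.04 RPM, came from 1 of the 2 E16 libraries, and the other E16 library lay at 0.99 RPM, among the rest. The pore former Bak1 held 0 counts in all 6 GSC and both P7 libraries, 0 and 2 at E16 and 1 and 1 at E17. Ggnbp1 is annotated over the whole length of Bak1 on the opposite strand (chromosome 17, 27019812 to 27028627), and whether the counting used strand is not given in the sources used here. Other genes are also annotated over parts of Bcl2, Bcl2l1, Bcl2l11, Bid and Bad. In GENCODE M21, exons of other genes cover 0 of the last 1000 bases of each member, where 3' tags would fall.

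The BH3-only gene Bbc3, which encodes PUMA and is a p53 target, was also near the floor. It held 9 and 5 counts in WT, 6 and 1 in KO1, 5 and 9 in KO2, 1 and 6 at E16, 7 and 5 at E17, and 0 and 1 at P7. E17 and P7 did not overlap, and the ratio of their summed levels was 20.7 (95% counting interval 3.06 to 884). Without the filter on low counts, Bbc3 was lower at P7 than at E17 (log2 fold change -3.80 ± 1.51 SE, with an adjusted p of 0.0281 by edgeR). With the filter, Bbc3 was tested for this pair only without replicate 2 of E17, where the difference was -4.12. There it passed the filter through the remaining E17 library with 7 counts, so this fit is no separate support. Against WT, also without the filter, the value at P7 was -3.37 with an adjusted p of 0.0516.

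**Figure D1:**
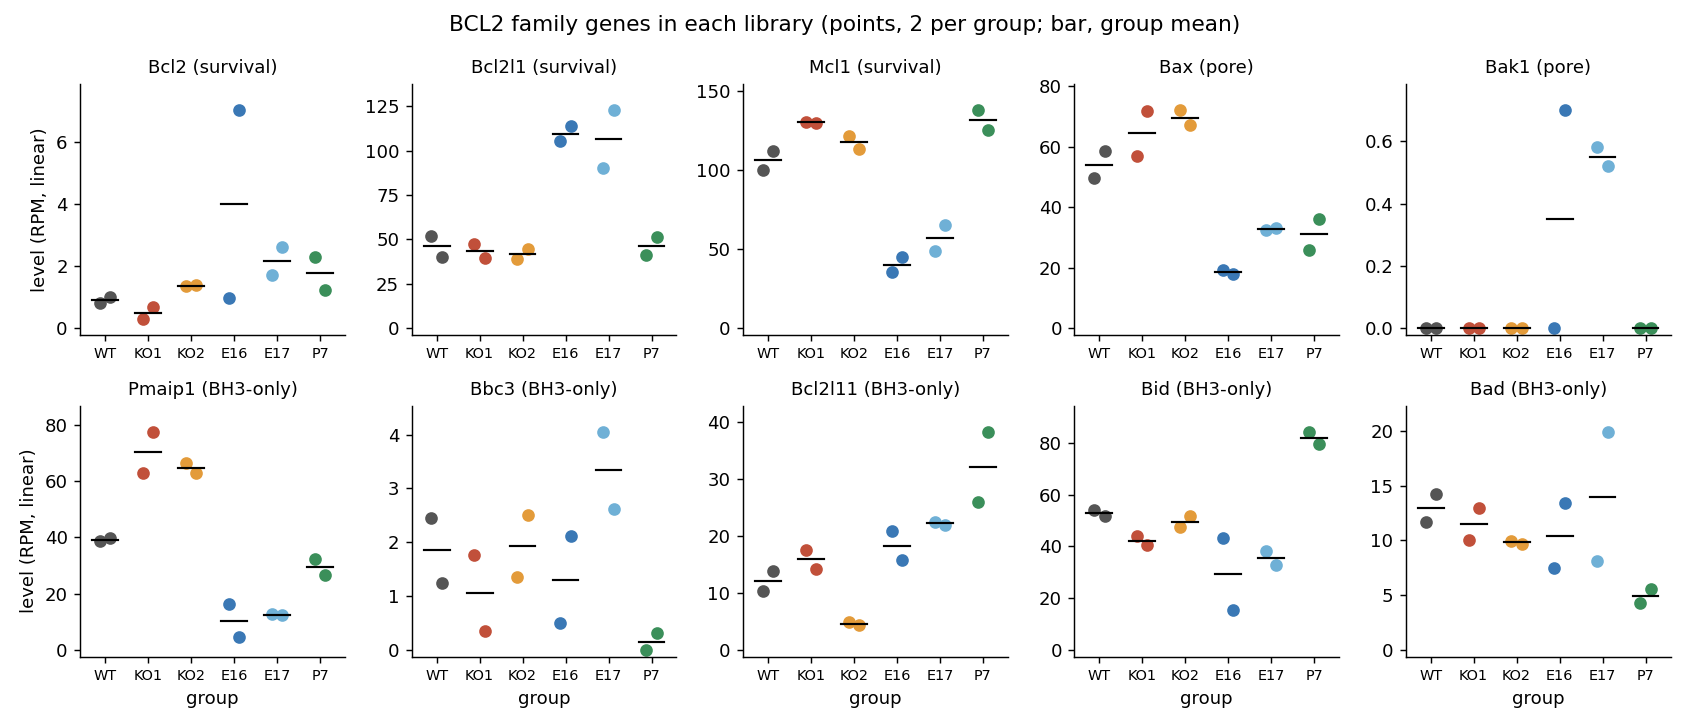
Level of each of the 10 members (vertical axis, RPM, linear, its own range in each panel) in the 6 groups, with 1 point per library and a bar at the group mean. Bcl2l1 is highest in the 4 fetal libraries (90.2 to 123 RPM), where Mcl1 is lowest (35.3 to 64.9 RPM), and Bcl2l11 stands at 4.86 and 4.44 RPM in KO2.

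The first comparison set the 2 Stag3 knockout lines against WT GSCs. Pmaip1, which encodes NOXA, a BH3-only protein that binds MCL1 and a p53 target, was higher in both lines. The gene lies on chromosome 18 (GRCm38.p6, 66458604 to 66465558). Its level was 38.7 and 39.9 RPM in WT, while KO1 had 63.0 and 77.5 and KO2 had 66.4 and 63.0, so that all 4 knockout libraries lay above both WT libraries. It was 1 of 7 tested members that passed in the mean of both lines against WT (log2 fold change 0.73 ± 0.14 SE, with an adjusted p of 2.12e-05 by the quasi-likelihood test of edgeR after Benjamini-Hochberg adjustment over all genes). Values after ± are standard errors of log2 fold changes unless marked SD, and an adjusted p under 0.05 counts as passing. Of all 11890 genes tested, 19.2% passed in that comparison, 8.64% higher and 10.6% lower. Markers of other cells moved in these libraries too. Sertoli markers summed to 55.9 and 59.7 RPM in KO1 and 37.0 and 41.3 in KO2 against 26.4 and 31.7 in WT, with Amh at 0. The markers did not move together. Aard stood at 6.81 and 12.71 RPM in WT and 20.25 to 31.49 in the knockout libraries. Wt1 stood at 16.06 and 12.71 RPM in WT, 10.89 and 15.36 in KO1 and 7.56 and 3.61 in KO2. Fibroblast and feeder markers (6 of 6 found) summed to 29.7 to 42.1 RPM in the 4 knockout libraries and 76.7 and 81.1 in WT, with Lum at 0 in 5 of these 6. Of this list, Col1a1, Col1a2, Col3a1 and Dcn were lower in every knockout library than in both WT libraries. Thy1 did not follow the sum. KO1 libraries held 12.65 and 7.68 RPM of Thy1, above both WT libraries (6.26 and 3.99). Its KO2 levels, 5.13 and 6.66 RPM, overlapped WT. What part these markers of other cells had in the result was not tested.

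Taken line by line, in KO1 Pmaip1 was again 1 of 7 tested members past the threshold (0.78 ± 0.16, adjusted p = 9.77e-05), where 13.6% of all genes passed, 6.24% higher and 7.4% lower. In KO2 2 of 7 passed, Pmaip1 higher (0.67 ± 0.15, adjusted p = 0.000743) and Bcl2l11 lower, where 15.6% of all genes passed, 7.19% higher and 8.45% lower. The Pmaip1 call in KO2 had adjusted p = 0.0502 when all 12 libraries shared a fit, with a log2 fold change of 0.66. Both knockout comparisons share the same WT libraries.

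Bcl2l11 encodes BIM, a BH3-only protein that is raised by loss of growth factors, in part through FOXO factors. It spans 128126038 to 128162547 on chromosome 2. WT libraries had 10.3 and 13.9 RPM, KO1 libraries 17.7 and 14.3, and KO2 libraries 4.86 and 4.44. Both KO2 libraries thus lay below every other library of the series, while both KO1 libraries lay above both WT libraries. KO2 differed from WT by -1.43 ± 0.35 on the log2 scale (adjusted p = 0.00182, edgeR), and KO1 by 0.35 ± 0.30 (adjusted p = 0.496). The difference between the lines was tested itself, and KO1 stood above KO2 by 1.78 ± 0.35 (adjusted p = 0.000677). Bcl2l11 was 1 of 7 members past the threshold between the lines, where 0.833% of all genes passed, 0.547% higher in KO1 and 0.286% lower. Without replicate 1 of KO1 the difference was 1.61 with an adjusted p of 0.0854.

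The survival genes and Bax did not pass in any of the 4 comparisons among GSCs. Mcl1, a short-lived survival protein, stood at 100 and 112 RPM in WT, at 130.4 and 129.9 RPM in KO1 libraries and at 121.5 and 113 RPM in KO2 libraries. The 4 knockout libraries lay above both WT libraries, but the difference was small (0.17 ± 0.10, adjusted p = 0.231). Bcl2l1, which encodes BCL-XL, stood at 52.0 and 40.4 RPM in WT, 47.4 and 39.5 in KO1 and 38.9 and 44.7 in KO2, and the 3 groups overlapped (-0.16 ± 0.14, adjusted p = 0.476).

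Bax (chromosome 7, 45461695 to 45466903), the pore former that was counted in every library, stood at 49.6 and 58.6 RPM in WT, 56.8 and 71.9 in KO1 and 72.1 and 67.1 in KO2. KO2 lay above WT and KO1 overlapped it (mean of both lines 0.25 ± 0.13, adjusted p = 0.165). Bid (chromosome 6, 120893119 to 120917062), which links death receptors to mitochondria once caspase 8 cuts its protein, stood at 53.9 and 51.8 RPM in WT, 43.8 and 40.5 in KO1 and 47.5 and 51.6 in KO2 (-0.26 ± 0.14, adjusted p = 0.182). All 4 knockout libraries lay below WT for Bid, by a small margin in KO2. Bad (chromosome 19, 6941861 to 6951905), whose protein is held inactive by growth factor kinases, stood at 11.7 and 14.2 RPM in WT and at 9.71 to 12.9 RPM in the knockout libraries, which overlapped WT (-0.34 ± 0.26, adjusted p = 0.392). The median log2 fold change of the 7 tested members was -0.16, beside 0.002 over all genes tested.

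**Figure D2:**
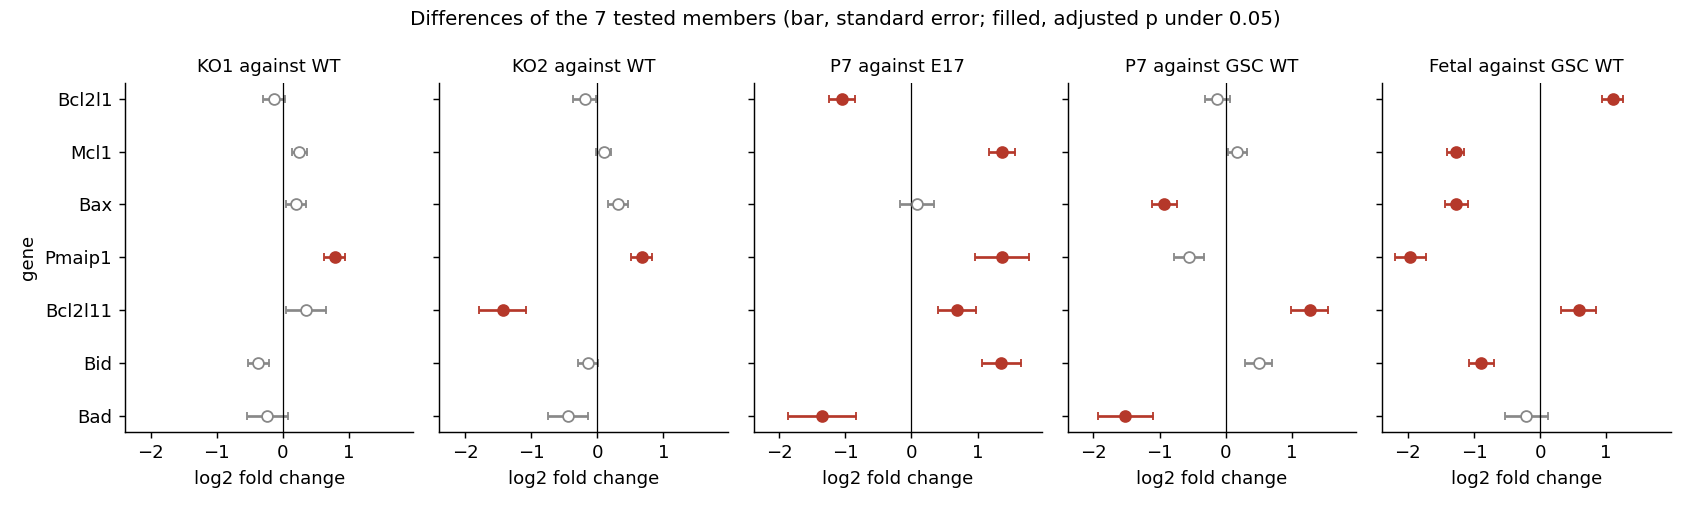
Log2 fold change (horizontal axis) of the 7 tested members in 5 comparisons, with the standard error of the fit as a bar and filled points for an adjusted p under 0.05. Pmaip1 is higher in both knockout lines, and Bcl2l11 is lower in KO2. In fetal cells against WT GSCs 6 of 7 members pass, 2 higher and 4 lower, where 74.2% of all genes pass. ERCC totals turn the 4 lower ones.

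Between E16 and E17, when male germ cells are arrested in the cell cycle, 0 of 7 tested members passed (edgeR quasi-likelihood test, 0 also at an unadjusted p under 0.05, and 0 by DESeq2), where 6.6% of all 14776 genes passed, 1.64% higher at E17 and 4.96% lower. The 2 E16 libraries differed widely for several members. Pmaip1 stood at 16.4 and 4.58 RPM at E16 and at 12.7 and 12.6 at E17. Bid stood at 43.2 and 15.5 RPM at E16 and at 38.1 and 33.0 at E17, within the span of E16. Bad was spread in both groups, at 7.45 and 13.4 RPM and at 8.09 and 19.9 RPM. Without replicate 1 of E16, 9 members were tested, with Bid higher at E17 (0.80) and Bcl2l1 (-0.49) and Bcl2 (-2.05) lower. Bcl2 was set there against the single E16 library with 20 counts, through which it passed the filter. Which members passed depended on the E16 library left out. With ERCC totals as size factors 7 of 7 were higher at E17, and so was the median of all genes, by 3.025.

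From E17 to P7, when spermatogonia have resumed division, most tested members changed, as did most genes. Of 7 tested members 4 were higher and 2 lower at P7, where 67.9% of all genes passed, 30.2% higher and 37.8% lower. The members' median log2 fold change was 0.69, beside -0.13 over all genes tested. In these bulk libraries fewer cells of a type and less RNA per cell cannot be told apart. The somatic marker sums and ERCC shares given above also differ between fetal and P7 libraries, and their part in these differences was not tested. ERCC totals as size factors moved the median of all genes to -4.81 for P7 against E17, to 2.87 for fetal cells against WT and to -0.425 for P7 against WT, so directions from here on are relative to the bulk of genes.

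The survival genes Mcl1 (chromosome 3, 95656944 to 95663179) and Bcl2l1 (chromosome 2, 152758732 to 152833803) went opposite ways relative to the bulk of genes. Mcl1 was 35.3 and 44.7 RPM at E16, 48.5 and 64.9 at E17 and 138 and 125 at P7, with both P7 libraries above all 4 fetal ones (P7 against E17 1.36 ± 0.20, adjusted p = 2.6e-05, edgeR, and -3.31 with ERCC totals). Bcl2l1 was 105 and 114 RPM at E16, 90.2 and 123 at E17 and 41.1 and 51.3 at P7, with both P7 libraries below all fetal ones (-1.05 ± 0.20, adjusted p = 0.000278).

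Set against WT GSCs, fetal cells showed the same arrangement, with Mcl1 lower (-1.28 ± 0.13, adjusted p = 1.47e-10, and 1.34 with ERCC totals) and Bcl2l1 higher (1.10 ± 0.16, adjusted p = 1.97e-07). P7 and WT libraries did not differ past the threshold for either gene (Mcl1 0.18 ± 0.14, adjusted p = 0.375, and Bcl2l1 -0.13 ± 0.19, adjusted p = 0.666). The ratio of Bcl2l1 to Mcl1 counts within a library, chosen after the values were seen, was 2.99 and 2.55 at E16, 1.86 and 1.90 at E17, 0.30 and 0.41 at P7 and 0.30 to 0.52 in the 6 GSC libraries. The 4 fetal libraries therefore stand apart from the other 8 in this ratio.

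**Figure D3:**
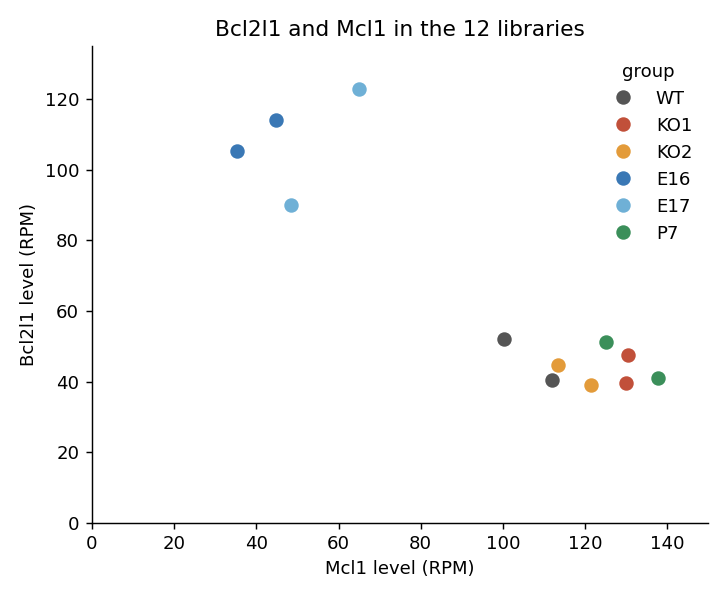
Bcl2l1 level (vertical axis, RPM) against Mcl1 level (horizontal axis, RPM), 1 point per library, coloured by group. The 4 fetal libraries lie at the upper left, with Bcl2l1 at 90.2 RPM or more and Mcl1 at 64.9 RPM or less, and the P7 and GSC libraries lie together at the lower right.

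Bax followed neither. It was 19.4 and 18.0 RPM at E16, 32.4 and 33.0 at E17 and 26.0 and 36.2 at P7, and E17 and P7 overlapped (0.09 ± 0.26, adjusted p = 0.777). All 6 in vivo libraries lay below the 6 GSC libraries. Bax was lower than in WT GSCs both in fetal cells (-1.27 ± 0.17, adjusted p = 5.16e-08, edgeR, and 1.36 with ERCC totals) and at P7 (-0.93 ± 0.19, adjusted p = 0.000263).

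Among BH3-only members Pmaip1 stood at 32.2 and 26.6 RPM at P7, above all 4 fetal libraries (P7 against E17 1.37 ± 0.41, adjusted p = 0.00759, and -3.32 with ERCC totals) and below both WT libraries without passing the test (-0.55 ± 0.23, adjusted p = 0.0623). In fetal cells it was lower than in WT GSCs (-1.96 ± 0.23, adjusted p = 1.86e-09, and 0.70 with ERCC totals). Without replicate 1 of P7 the difference from E17 was 1.26 with an adjusted p of 0.0518. Bid reached its highest level at P7, 84.2 and 79.4 RPM, above every other library (P7 against E17 1.36 ± 0.30, adjusted p = 0.000885, and -3.34 with ERCC totals). It was lower in fetal cells than in WT (-0.89 ± 0.19, adjusted p = 0.000129, and 1.80 with ERCC totals). Against WT the P7 level was higher by 0.50 ± 0.20 without passing (adjusted p = 0.0593).

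Bcl2l11 was 20.9 and 15.8 RPM at E16, 22.5 and 22.0 at E17 and 26.0 and 38.3 at P7, so every in vivo library lay above both WT libraries. It was higher at P7 than in WT (1.27 ± 0.28, adjusted p = 0.000566, and 0.74 with adjusted p = 0.0954 with ERCC totals). Its rise from E17 to P7 (0.69 ± 0.28, adjusted p = 0.0423) and its excess in fetal cells over WT (0.58 ± 0.27, adjusted p = 0.0468) passed narrowly, and ERCC totals turned the first to -3.97. The first also missed the threshold with RLE size factors (adjusted p = 0.0507), with DESeq2 (0.156), and without replicate 1 or 2 of E17 (0.124 and 0.151) or replicate 2 of P7 (0.39, adjusted p = 0.349). The second missed it in 5 of 6 fits that left out a library, with adjusted p up to 0.311 and a value of 0.38 without replicate 1 of WT. Bad ended lowest at P7, at 4.27 and 5.56 RPM, below all other libraries. It was lower there than in WT (-1.52 ± 0.42, adjusted p = 0.00475) and than at E17 (-1.35 ± 0.52, adjusted p = 0.0307). Without replicate 2 of E17, its highest library, the second difference was -0.53 (adjusted p = 0.553), by DESeq2 its adjusted p was 0.0714, without replicate 1 or 2 of P7 it was 0.148 and 0.0699, and without replicate 1 of P7 the first was -1.36 (adjusted p = 0.0586).

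Counted over members and relative to the bulk of genes, fetal cells differed from WT GSCs in 6 of 7, with 2 higher and 4 lower, where 74.2% of all 15827 genes passed, 41.9% higher and 32.3% lower. P7 cells differed from WT in 3 of 7 (Bcl2l11, Bax and Bad), with 1 higher and 2 lower, where 31% of all genes passed, 16% higher and 15% lower. Both comparisons share the 2 WT libraries. The members' median log2 fold change was -0.89 in fetal cells and -0.13 at P7, beside 0.23 and 0.03 over all genes tested.

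Levels across the 6 groups can be ordered by member. Pmaip1 ran KO1, KO2, WT, P7, E17 and E16 from high to low, and only KO1 and KO2, and E17 and E16, overlapped between neighbours. Bcl2l11 ran P7, E17, E16, KO1, WT and KO2, with overlap only between E16 and KO1. Mcl1 ran P7, KO1, KO2, WT, E17 and E16, with overlap only between P7 and KO1, and Bid ran P7, WT, KO2, KO1, E17 and E16, with overlap only between E17 and E16. The highest group mean over the lowest was 6.70 for Pmaip1, 6.92 for Bcl2l11, 3.29 for Mcl1, 3.73 for Bax, 2.79 for Bid, 2.84 for Bad and 2.63 for Bcl2l1. The genes with the most similar course over the 6 group means, by the root mean square difference of centred log2(RPM + 1) values, were F8a (0.09) and Srp19 (0.11) for Pmaip1, Mob4 (0.05) and Ctnna1 (0.06) for Mcl1, Nrde2 (0.06) and Ift172 (0.07) for Bcl2l1, Xlr5b (0.13) and Impact (0.32) for Bcl2l11, Hspbap1 and Ofd1 (both 0.06) for Bid, Qsox1 and BC029722 (both 0.09) for Bax, Gprasp2 (0.08) and Ddx55 (0.11) for Bad, Zfp184 (0.14) and Hecw2 (0.175) for Bcl2 and P3h1 (0.105) and Selenom (0.16) for Bbc3. Group means of Bak1 spanned too little to be searched. This is a description of 6 means with no test.

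The rest of the pathway was read from a list of 52 other apoptosis genes, all found in the tables. In GSCs 40 of them were tested, and 9 were higher and 5 lower in the mean of both knockout lines, where 8.64% of all genes were higher and 10.6% lower. By role, the 3 voltage-dependent anion channel genes of the outer membrane were all higher in the mean of both lines, while 0 of 3 passed in KO1 alone and 2 of 3 in KO2 alone. Of 5 tested other pore or BH3-only genes 3 were lower (Bik, Bnip3 and Bnip3l) and 0 higher. Taken line by line, Bnip3 passed in both lines. Bik passed only in KO1 (-1.27, and -0.30 in KO2) and Bnip3l only in KO2 (-0.24, and -0.18 in KO1). Bnip3, a BH3-like gene of mitophagy and hypoxia, stood at 48.5 and 54.8 RPM in WT, 25.6 and 24.8 in KO1 and 21.1 and 21.6 in KO2 (-1.20 ± 0.15, adjusted p = 7.57e-10, edgeR). Foxo3, a transcription factor that activates Bcl2l11 and maintains stem cells, stood at 67.0 and 63.5 RPM in WT, 31.2 and 45.0 in KO1 and 39.7 and 40.2 in KO2 (-0.80 ± 0.14, adjusted p = 2.90e-06). The death receptor gene Tnfrsf10b (0.74 ± 0.18), the inhibitor of apoptosis gene Birc5, best known from mitosis (0.55 ± 0.10), and the channel gene Vdac1 (0.49 ± 0.18) were higher. KO1 alone had 3 higher and 3 lower, where 13.6% of all genes passed, and KO2 alone 7 higher and 5 lower, where 15.6% did. Between the lines 0 of 40 passed in edgeR (4 at an unadjusted p under 0.05), where 0.833% of all genes did, with Foxo3 at -0.08 ± 0.17 and Bnip3 at 0.24 ± 0.21.

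In vivo 46 of the 52 were tested, and 1 was higher and 4 lower at E17 than at E16, where 6.6% of all genes passed. Bnip3 (0.89 ± 0.24) was higher, and Endog (-0.69 ± 0.17), Vdac3 (-0.65 ± 0.12), Cycs, which encodes cytochrome c (-0.65 ± 0.13), and Aifm1 (-0.64 ± 0.17) were lower. From E17 to P7, 18 were higher and 14 lower, close to the 67.9% of all genes that passed. Trp53, which encodes p53, went from 1.16 and 3.14 RPM at E17 to 53.3 and 60.0 at P7 (4.81 ± 0.40, adjusted p = 1.14e-07, edgeR). Its E17 level rests on 2 and 6 counts, so the size of the change is uncertain. Its relative Trp63, which passed the filter through the fetal libraries alone, went from 27.2 and 20.4 RPM to 1.64 and 0.31 (-4.40 ± 0.53). Birc5 (3.34 ± 0.33) and the family member Bcl2l12 (3.03 ± 0.50) were higher too.

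Against WT GSCs, 47 of the 52 were tested, with 13 higher and 20 lower in fetal cells, where 74.2% of all genes passed, and 5 higher and 6 lower at P7, where 31% did. In fetal cells Ddit3, which encodes the stress factor CHOP (2.73 ± 0.23), and Trp63 were higher. Trp63 held 197 counts in the 4 fetal libraries and 2 in WT, so its level was 89.1 times that of WT, with a 95% interval from counting error of 24.3 to 741. It passed the filter on low counts through the fetal libraries alone, so this ratio is a description and no separate test. Lower were Trp53 (-4.25 ± 0.23, with 2 to 20 counts in each fetal library) and Birc5 (-3.39 ± 0.19). At P7 the inhibitor gene Birc6 (1.30 ± 0.24) and Usp9x, which encodes a deubiquitinase that stabilises MCL1 (0.86 ± 0.11), were higher, and Htra2 (-0.85 ± 0.30), Vdac1 (-0.80 ± 0.29) and Birc5 (-0.67 ± 0.17) were lower.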

How the data were processed

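The build was GRCm38.p6 and the tools included Salmon 1.4.0, HTSeq 0.9.1, TopHat2 2.1.1 and cutadapt 1.18, per the submitters' processing notes. What each did, and whether strand was used, is not given in sources used here. For each library the authors deposited a table with a column of whole read counts per gene, which was used for every test, and a column of scores, which the authors scaled from the counts per 1000000 reads without spike-in, transgene and mitochondrial rows and which was only checked. For GSC WT the replicate numbers in titles and file names are opposite, and titles were used. Blank cells were treated as missing.

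Tests used edgeR 4.0.16 (quasi-likelihood, TMM, filterByExpr by group) with Benjamini-Hochberg adjustment over all genes tested and a threshold of 0.05. The GSC comparisons came from a fit of the 6 GSC libraries, the in vivo ones from a fit of the 6 in vivo libraries, and those against GSC WT from a fit of all 12, with the in vivo and 12-library fits over the genes in both gene lists. The procedure was tested on simulated data. The members, the pathway list and the tests were chosen with earlier results of these data known. Pathway genes were named by size of change among those past the threshold with a mean of at least 20 RPM, at most 5 per comparison, and 1 gene that this rule names is not reported here. Alternatives were DESeq2 1.42.0 and its size factors, ERCC spike-in totals as size factors, no filter, the replicate number as a block, other sets of samples in the fit, and leaving out each library. Counts have no molecular identifiers given here, so intervals cover counting error only.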

Additional observations from a re-analysis of the deposited data

Results flagged for a closer look

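Bcl2l11 was singled out because the effects of the 2 knockout lines differed by a test of the difference itself. KO1 stood above KO2 by 1.78 on the log2 scale (adjusted p = 0.000677, edgeR quasi-likelihood test, 8.18e-05 to 0.0854 over the alternatives other than ERCC totals), with both KO1 libraries above both KO2 libraries. The KO2 level rests on 18 and 16 counts.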

How the results depend on the processing

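Of 588 values of single members under alternatives, 516 kept their direction and their side of the threshold, 36 changed sign, 22 lost the threshold and 14 gained it. Without ERCC totals these were 485, 19, 21 and 7 of 532. Size factors from ERCC totals gave KO1 against KO2 values of -0.10 for Bcl2l1, -0.02 for Mcl1 and -0.06 for Pmaip1, where the median of all genes was -0.164. They gave 7 members higher at E17 than E16, with Bcl2l1 at 2.63 and Bcl2l11 at 2.96. For P7 against E17 they gave -3.31 for Mcl1, -4.57 for Bax, -3.32 for Pmaip1, -3.97 for Bcl2l11 and -3.34 for Bid. For P7 against WT they gave -0.38 for Mcl1 and -0.06 for Bid, and for fetal cells against WT 1.34 for Mcl1, 1.36 for Bax, 0.70 for Pmaip1, 1.80 for Bid and 2.38 for Bad. The cause was not tested.

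A fit of all 12 libraries left 1 member past the threshold in KO2 against WT. The replicate number as a block gave 5 members for P7 against WT, with Pmaip1 (adjusted p = 0.0435) and Bid (0.0355) added, and so did a fit of only the groups compared (5 members). The block gave 5 members for fetal cells against WT and left the other counts of members as they were. The number of all genes called moved between alternatives too. For P7 against WT it was 4909 in the main fit and 3200 to 5618 over the alternatives. For fetal cells against WT it was 11750 and 10462 to 14663, and for KO2 against WT 1860 and 864 to 2087. Samples of the same number did not deviate together (r from -0.014 to 0.043 over 15827 genes). Counting noise in genes with few counts also lowers such an r, so this cannot decide whether the numbers pair the libraries.

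Leaving out 1 library at a time gave Bcl2l1 values of -0.37 to 0.04 in the mean of both lines, -0.34 to 0.08 in KO1 and -0.40 to 0.01 in KO2. Between the lines the count of members was 0 to 1, Bcl2l1 was -0.09 to 0.18, Bax -0.29 to 0.04 and Pmaip1 -0.04 to 0.25. For E17 against E16 the count was 0 to 3, Mcl1 -0.07 to 0.42, Pmaip1 -0.65 to 1.06, Bcl2l11 -0.18 to 0.09, Bid -0.56 to 0.80 and Bad -0.73 to 0.65. Bax was -0.16 to 0.34 for P7 against E17, Bcl2l1 -0.33 to 0.07 for P7 against WT and Bad -0.63 to 0.02 for fetal cells against WT. A group left with 1 library was assumed to vary like the others.

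Genes called over all alternatives numbered 1083 to 2531 for the mean of both lines, 679 to 1846 for KO1, 864 to 2087 for KO2, 35 to 136 between the lines, 232 to 14508 for E17 against E16, 8120 to 14523 for P7 against E17, 3200 to 5618 for P7 against WT and 10462 to 14663 for fetal cells against WT. With ERCC totals the share of called genes that were higher went from 45.7% to 25.9% in KO1, 46.0% to 58.4% in KO2 and 65.7% to 37.0% between the lines. At a depth where 3 counts are 0.75 to 1.73 RPM, changes in Bcl2, Bak1 and Bbc3 were mostly not detectable.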
